A study of Arabidopsis thaliana with 11 samples.

Results

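The glutamate tRNAs Glu(CTC) and Glu(TTC) carry glutamate to the ribosome and read its codons with the anticodons CTC and TTC (DNA letters). They were taken as all rows of the percent methylation tables for these isodecoders, together with their nuclear consensus sequences and gene loci. They make up 2 of the 58 consensus tRNAs of purely nuclear origin, and 5 of the 39 cytosines with a listed methylation level. The 5 are C49 and C50 of Glu(CTC) and C48, C49 and C50 of Glu(TTC). Their genes account for 24 of the 612 loci that the nuclear consensus sequences stand for.

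5-methylcytosine (m5C) is cytosine with a methyl group on carbon 5 of its ring. A tRNA folds into a cloverleaf of stems and loops, in which a short variable loop joins the anticodon arm to the T arm. Enzymes of the TRM4 family (NSUN2 in animals) place m5C at and beside the variable loop, and TRDMT1 (DNMT2 in animals) modifies C38 in the anticodon loop. *Arabidopsis thaliana* has a pair of TRM4 genes, *TRM4A* and *TRM4B*, while NSUN5 and NOP2A are related methyltransferases from groups known for rRNA methylation.

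RNA bisulfite sequencing (RBS-seq) was used to measure m5C in gel-purified tRNA. Bisulfite converts cytosine but spares m5C, and a level is the percentage of reads that still show C at a cytosine. All plants were of the Columbia background, and all mutants carried T-DNA insertions. Seedlings 10 days after germination gave 1 library each of *trm4b-1*, the *trdmt1 trm4b* double mutant (made from the *trdmt1* and *trm4b-1* alleles), *trdmt1*, *trm4a*, *nsun5-2* and *nop2a-2* (also named *oli2-2*), and 3 wild type libraries. Mixed buds gave 1 library of *trm4b-2*, a second insertion allele, and 1 of wild type. The wild type seedling level was deposited as the authors' mean of its 3 libraries, with no spread, and read depth per cytosine was unknown. Differences between genotypes therefore had no replicate error to be set against, no test was made, and the transcripts of the mutated genes were not measured in these libraries.

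The consensus sequences of both glutamate tRNAs are shown because their methylated cytosines lie in a stretch they share, with capitals for C38, C48, C49 and C50.
Glu(CTC): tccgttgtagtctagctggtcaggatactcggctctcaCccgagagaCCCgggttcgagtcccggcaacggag
Glu(TTC): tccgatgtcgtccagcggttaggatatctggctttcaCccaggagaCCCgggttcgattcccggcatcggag
Here positions are the standard structural numbers of tRNA, which count the last base before the CCA tail as 73. Both glutamate tRNAs have a variable loop of 4 bases, in which number 47 is not used and C48 is the last base. C49 and C50 are the first bases of the T arm.

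Outside bases 8 to 26, the consensus sequences could be compared base for base at 53 positions, of which 9 differed. The anticodon stem held 5 of these in its 10 positions, namely C27T, T28C, C29T, G41A and A42G, with the base of Glu(CTC) first and that of Glu(TTC) last. The wobble base of the anticodon differed as C34T, and the acceptor stem differed as T5A and A68T. The variable loop was identical over its 4 positions, and the T arm differed in 1 of 17 positions (G59T, in the T loop). Bases 8 to 26 numbered 20 in Glu(CTC) and 19 in Glu(TTC). Once each C was read as T, as in a bisulfite-converted reference, 5 of the 9 differences remained.

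Both sequences share 15 bases from position 43 to 58, printed with C48, C49 and C50 in capitals.
shared by both glutamate tRNAs: gagaCCCgggttcga
No other nuclear consensus holds these 15 bases (2 of 58, or 3.45%). From position 44 on, the remaining 14 bases also occur in Gly(GCC) and Gly(TCC), which makes 4 of 58 consensus sequences, or 6.90%. Asp(GTC) shares only part of the stretch. The sequences of these 3 tRNAs are printed for the comparisons at C38, C48 and C49, with the same capitals where the base is C.
Gly(GCC): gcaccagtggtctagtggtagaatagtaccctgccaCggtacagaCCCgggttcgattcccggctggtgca
Gly(TCC): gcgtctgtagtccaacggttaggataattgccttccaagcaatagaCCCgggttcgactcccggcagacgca
Asp(GTC): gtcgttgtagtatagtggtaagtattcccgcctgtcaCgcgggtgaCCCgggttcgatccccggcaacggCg
The last capital of Asp(GTC) is C72, a base of the acceptor stem. At position 72 both glutamate tRNAs have A.

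Glu(CTC) had 22 cytosines in its consensus and Glu(TTC) had 21, of which 2 and 3 had a listed level. All 5 listed cytosines fall at positions 48 to 50.

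**Figure D1:**
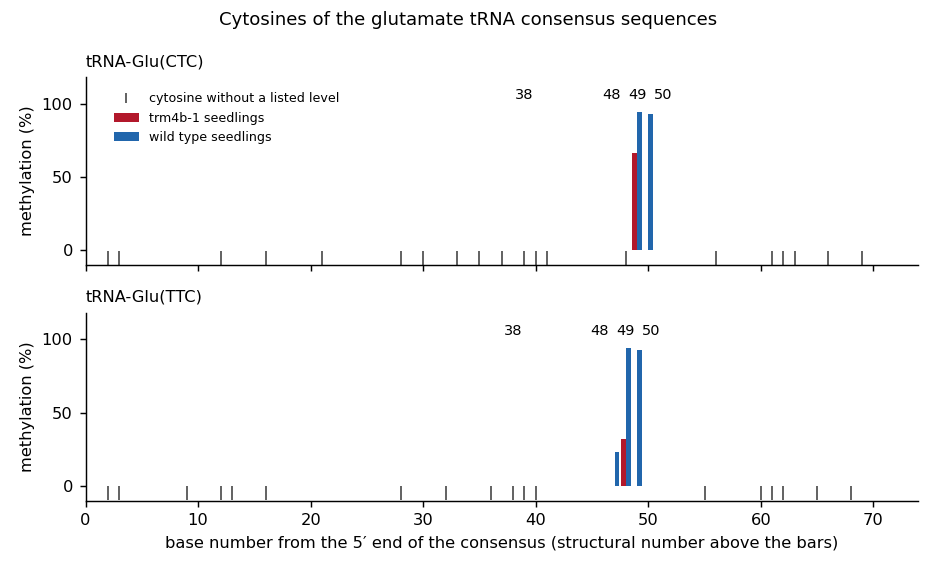
Percent methylation (vertical axis) against base number from the 5′ end of each consensus (horizontal axis) in *trm4b-1* seedlings (red, 1 library) and wild type seedlings (blue, mean of 3 libraries), with grey ticks for cytosines that have no listed level. In Glu(CTC) the listed levels are at C49 (66% in *trm4b-1*, 94% in wild type) and C50 (0% and 93%), and in Glu(TTC) they are at C48 (0% and 23%), C49 (32% and 94%) and C50 (0% and 93%).

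C50 of both glutamate tRNAs was at 0% in each library with *TRM4B* mutated and was nearly fully methylated elsewhere. For Glu(CTC), C50 was at 0% in *trm4b-1*, the double mutant and *trm4b-2*, against 93% in wild type seedlings and 94% in wild type buds. The other mutants had 92% (*trdmt1*), 90% (*trm4a*), 91% (*nsun5-2*) and 92% (*nop2a-2*) at this cytosine. No library with *TRM4B* mutated overlapped the rest. This was not particular to glutamate, since each listed cytosine at positions 48 to 50 of Asp(GTC), Gly(CCC), Gly(GCC) and Gly(TCC) separated the same way. The share of all cytosines that separated so was not counted.

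Glu(TTC) C50 was likewise at 0% in all 3, against 93% in wild type seedlings and 93% in wild type buds. It stood at 91% in *trdmt1*, 92% in *trm4a*, 92% in *nsun5-2* and 90% in *nop2a-2*. The C50 levels of Glu(CTC) and Glu(TTC) differed by at most 2 percentage points in any of the 9 columns of values (mean absolute difference 0.778 points). Among the 3 other tRNAs with a listed C50, the range was 0% to 1% in the libraries with *TRM4B* mutated and 91% to 96% in wild type seedlings.

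C49, the neighbouring base, kept part of its methylation in all 3 libraries with *TRM4B* mutated, and more of it in Glu(CTC) than in Glu(TTC). In Glu(CTC), C49 was at 66% in *trm4b-1*, 75% in *trdmt1 trm4b* and 80% in *trm4b-2*, against 94% in wild type seedlings and 95% in wild type buds. In Glu(TTC), C49 was at 32% in *trm4b-1*, 42% in *trdmt1 trm4b* and 48% in *trm4b-2*, against 94% in wild type seedlings and 95% in wild type buds. Both cytosines lie within the identical 15 bases, and in wild type they had the same level in each tissue.

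As a share of the matching wild type level, Glu(CTC) C49 kept 70.2% in *trm4b-1*, 79.8% in *trdmt1 trm4b* and 84.2% in *trm4b-2*. Glu(TTC) C49 kept 34%, 44.7% and 50.5% in the same libraries. The level of Glu(CTC) exceeded that of Glu(TTC) by 34 points in *trm4b-1*, 33 points in *trdmt1 trm4b* and 32 points in *trm4b-2*. Across the other 6 columns this difference lay between -2 and 1 points. The double mutant and *trm4b-1* share an allele and a wild type, so only *trm4b-2* comes from a separate insertion line, tissue and wild type library. At C49 the double mutant was above *trm4b-1* by 9 points for Glu(CTC) and by 10 points for Glu(TTC), with no replicate of either.

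**Figure D2:**
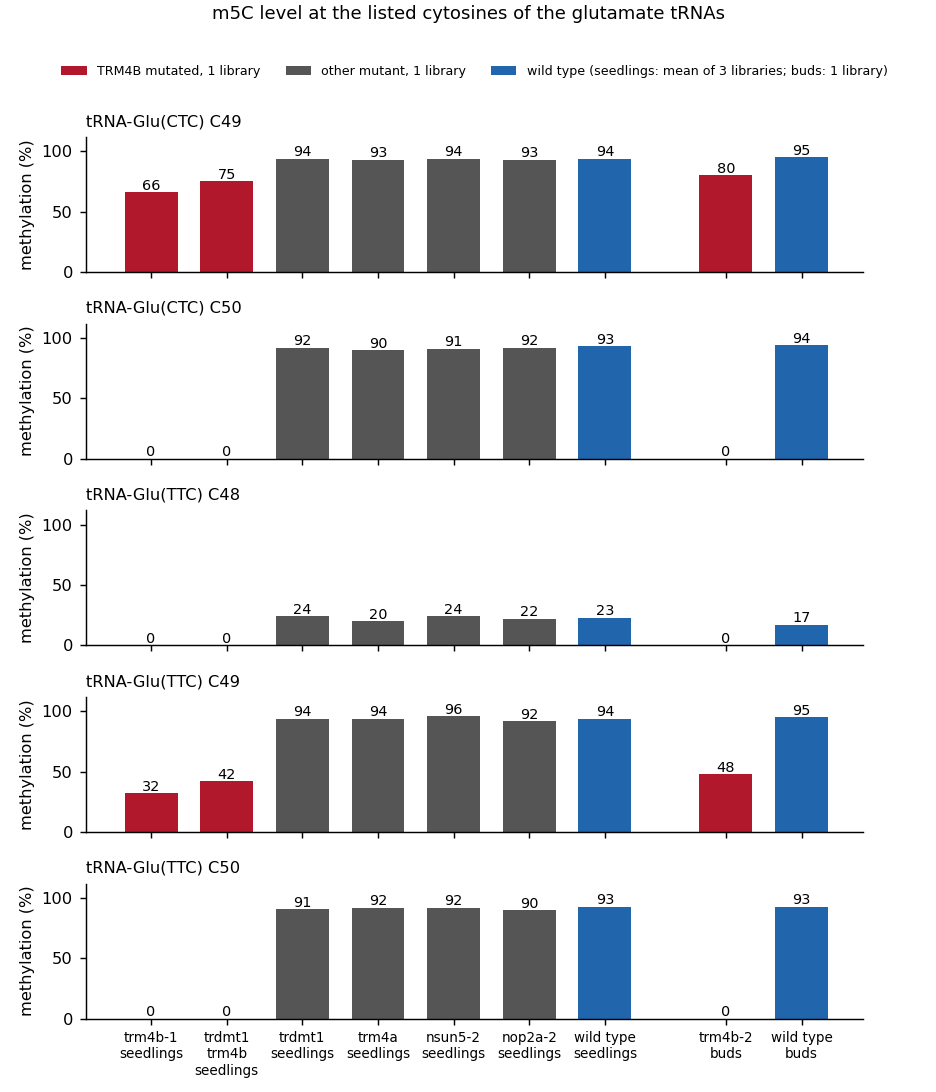
Percent methylation (vertical axes) at the 5 listed cytosines in each genotype (horizontal axis), with seedlings on the left and buds on the right. Red bars are single libraries with *TRM4B* mutated, grey bars are single libraries of other mutants and blue bars are wild type (mean of 3 seedling libraries, 1 bud library). Red bars are at 0% except at C49, where they reach 66% to 80% in Glu(CTC) and 32% to 48% in Glu(TTC).

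C48 of Glu(TTC) was the least methylated of the 5 cytosines. It was at 0% in *trm4b-1*, the double mutant and *trm4b-2*, against 23% in wild type seedlings and 17% in wild type buds. The other mutants listed 24% (*trdmt1*), 20% (*trm4a*), 24% (*nsun5-2*) and 22% (*nop2a-2*). These low levels differed little among libraries with intact *TRM4B*, from 17% to 24%, and none overlapped the 0% of the 3 others. C48 of Asp(GTC), Gly(CCC), Gly(GCC) and Gly(TCC) separated the same way, at 0% to 5% against 62% to 100%. Other listed C48 levels reached 88% in *trm4b-1*. Over all tRNAs, 46.9% of the 32 cytosines compared in *trm4b-1* were at 5% or less. By the study's criteria a methylated site had at least 20% and a value at least 5 reads. Glu(TTC) C48 therefore lay near that minimum, and its level in wild type buds was below it.

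Levels were classified against the matching wild type among cytosines with at least 20% there: "lost" at 5% or less, "reduced" when above 5% and at least 20 points lower, and otherwise retained. In *trm4b-1*, all 5 glutamate cytosines were lost or reduced (3 lost, 2 reduced), beside 78.1% of the 32 cytosines compared over all tRNAs (46.9% lost). In the double mutant 4 of 5 were (3 lost, 1 reduced), beside 74.3% of 35 (54.3% lost). In *trm4b-2* 3 of 4 were (2 lost, 1 reduced), beside 62.9% of 35 (42.9% lost), Glu(TTC) C48 being left out because wild type buds had 17%. With so many cytosines called over all tRNAs, these counts do not set the glutamate tRNAs apart.

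Among the glutamate cytosines called in all 3 libraries, only the call of Glu(CTC) C49 differed. It counted as reduced in *trm4b-1*, with a difference of -28 points, and as retained in the double mutant (-19 points) and *trm4b-2* (-15 points). The median difference from wild type over the 5 glutamate cytosines was -62 points in *trm4b-1*, -52 in *trdmt1 trm4b* and -47 in *trm4b-2*, beside medians of -46, -64 and -51 points over the other tRNAs. The median level over the 5 in *trm4b-1* was 0% and the mean was 19.6%.

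None of the 5 glutamate cytosines was lost or reduced in the other mutants. For *trdmt1* the count was 0 of 5, beside 13.3% of 30 cytosines over all tRNAs, and no glutamate level was more than 2 points from wild type. TRDMT1 acts at C38, a position at which the glutamate tRNAs have no listed level. In *trm4a*, which carries the insertion in the paralogue of *TRM4B*, the count was 0 of 5 beside 3.33% of 30, with differences of up to 3 points. In *nsun5-2* it was 0 of 5 beside 7.41% of 27, with differences of up to 2 points, and in *nop2a-2* it was 0 of 5 beside 0% of 27, with differences of up to 3 points. Counts of 0 in lists this short lie close to those small shares. The paper proposes that *nsun5-2* may keep low *NSUN5* expression, so its levels need not show a full loss.

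Over the 6 columns with intact *TRM4B* (4 mutants and both wild types), the glutamate levels lay close together. Glu(CTC) C49 ranged from 93% to 95% and C50 from 90% to 94%. Glu(TTC) C49 ranged from 92% to 96%, C50 from 90% to 93% and C48 from 17% to 24%. The median range of the 5 cytosines was 4 points and the widest 7 points. Over the 20 other cytosines with a level in all 9 columns, ranges ran from 2 to 33 points with a median of 5.50, where *trdmt1* was left out at the 3 cytosines at position 38. Of the 20, 11 were at 7 points or less, and these belonged to 3 tRNAs, Asp(GTC), Gly(GCC) and Gly(TCC).

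Wild type buds and wild type seedlings had nearly the same glutamate levels. The difference, buds minus seedlings, was 1 point at Glu(CTC) C49, C50 and Glu(TTC) C49, 0 at Glu(TTC) C50 and -6 at Glu(TTC) C48. None of the 5 reached 20 points, beside 7.69% of all 39 cytosines that did. The median absolute difference was 1 point for glutamate and 4 points for the 34 other cytosines, whose largest was 27 points. Such small differences were not limited to glutamate. C49 and C50 of Asp(GTC) and Gly(TCC) each had the same level in both tissues, while Gly(GCC) C50 was at 91% in seedlings and 87% in buds.

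Next, C49 was set beside the same base in Asp(GTC) and 3 glycine tRNAs, which have related sequences around it. In *trm4b-1* the order was Gly(GCC) 73%, Glu(CTC) 66%, Gly(TCC) 62%, Gly(CCC) 48%, Asp(GTC) 38% and Glu(TTC) 32%. In the double mutant it was 81%, 75%, 64%, 49%, 48% and 42% for the same tRNAs. In *trm4b-2* the same order gave 82%, 80%, 75%, 64%, 48% and 48%, with a tie at the end. Wild type levels of these 6 cytosines were all between 90% and 97%, so the order appeared where *TRM4B* was mutated. Neighbours in the order were as little as 1 point apart beside the tie, and without replicates it is not known which of them differ beyond error.

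**Figure D3:**
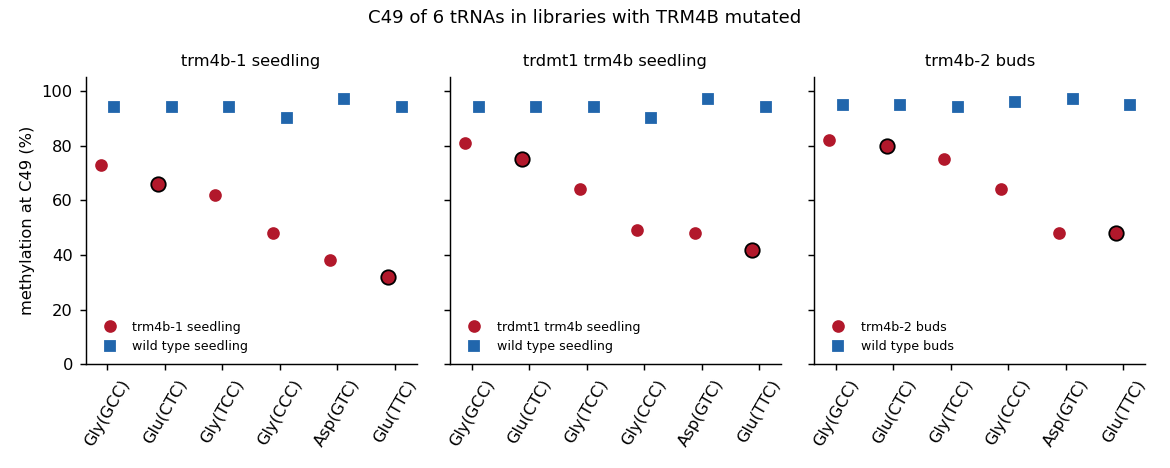
Percent methylation at C49 (vertical axis) of 6 tRNAs (horizontal axis) in *trm4b-1*, *trdmt1 trm4b* and *trm4b-2* (red circles, black outline for glutamate tRNAs, 1 library each), each with its matching wild type (blue squares, mean of 3 libraries for seedlings, 1 for buds). Glu(CTC) lies near the top of the mutant levels, at 66% to 80%, and Glu(TTC) at the bottom, at 32% to 48%, whereas wild type levels lie between 90% and 97%.

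At C49 each glutamate tRNA had levels closer to some sites of other families than to those of the other glutamate tRNA. The nearest sites were picked from 20 candidates, so a close match is easier to find among them than in a single fixed pair. By mean absolute difference over the 9 columns, Glu(CTC) C49 was nearest to Gly(GCC) C49 (2.78 points) and then Gly(TCC) C49 (3.22 points). Glu(TTC) C49 was nearest to Asp(GTC) C49 (2.67 points) and then Gly(CCC) C49 (7 points). Glu(CTC) C49 and Glu(TTC) C49 were 11.4 points apart, a gap that came from the libraries with *TRM4B* mutated. Gly(GCC) and Gly(TCC) share the 14 bases from position 44 with both glutamate tRNAs, yet at C49 they were close to Glu(CTC) and not to Glu(TTC).

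Partial retention at C49 was not limited to these tRNAs. Over every C49 with a level, Glu(CTC) held rank 3, among 12 tRNAs in *trm4b-1*, 11 in *trdmt1 trm4b* and 14 in *trm4b-2*. Glu(TTC) held rank 7 in both seedling libraries and rank 6 in *trm4b-2*. The other tRNAs ran from 0% to 100% in *trm4b-1* (median 25.5%), from 0% to 88% in the double mutant (median 48%) and from 0% to 91% in *trm4b-2* (median 20%), so both glutamate levels lay inside the spread at that position.

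At C48 Glu(TTC) had the lowest listed level in both wild types. Glu(TTC) C48, at 23% in wild type seedlings and 17% in wild type buds, was below each of the 15 other tRNAs with a listed C48, which ranged from 33% to 100% in wild type seedlings and from 49% to 94% in wild type buds (median 86% in both). Glu(CTC) has C at position 48 as well, but no level was listed for it. Of the 20 tRNAs with a listed cytosine that carry C at 48, 16 had a level there, and Glu(CTC), His(GTG), Thr(TGT) and Val(CAC) did not. In Glu(CTC) the bases directly after it, C49 and C50, had a level in all 9 columns. Whether C48 itself was unmethylated or below the study's minimum cannot be told apart from the tables used here.

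The low C48 came with the same flanking bases as high C48 levels elsewhere. Within the shared 14 bases, C48 was at 23% in Glu(TTC) in wild type seedlings, against 77% in Gly(TCC) and 92% in Gly(GCC). In wild type buds it was at 17% in Glu(TTC), against 72% in Gly(TCC) and 94% in Gly(GCC). Asp(GTC) C48, the nearest of the 20 candidates to Glu(TTC) C48 over the 9 columns, was still 32.1 points away on average. Where *TRM4B* was mutated, C48 of all 4 was at 0% to 3%. Of the 5 tRNAs with a listed C50, the other 4 had a listed C48, and Glu(CTC) was the one without.

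**Figure D4:**
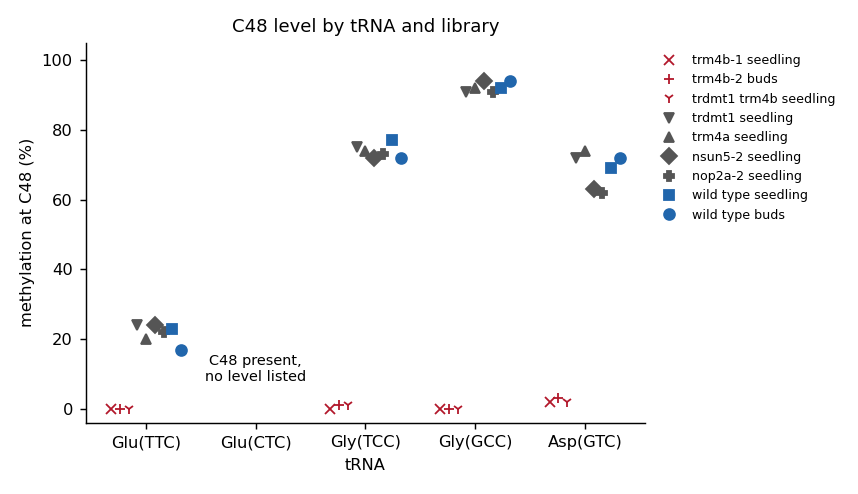
Percent methylation at C48 (vertical axis) of 5 tRNAs (horizontal axis), with libraries in the order of the legend from left to right within each tRNA (red, *TRM4B* mutated; grey, other mutants; blue, wild type). Glu(TTC) lies at 17% to 24% in the 6 columns with intact *TRM4B*, well below Gly(TCC), Gly(GCC) and Asp(GTC), and Glu(CTC) has no listed level.

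The glutamate tRNAs also carry a cytosine at position 38, the base that TRDMT1 methylates in other tRNAs, without a listed level there. In all, 13 of the 58 nuclear consensus tRNAs have C at 38, and 7 of these belong to tRNAs with a listed cytosine. A C38 level was listed for Asp(GTC) (95% in wild type seedlings), Gly(CCC) (95%) and Gly(GCC) (92%), and not for Glu(CTC), Glu(TTC), His(GTG) and Val(CAC). Bases 32 to 40 are printed with C38 in capitals, to show the bases on either side of it. C38 is the last base of the anticodon loop, and the bases after it belong to the anticodon stem.
Glu(CTC) bases 32 to 40: ctctcaCcc
Glu(TTC) bases 32 to 40: ctttcaCcc
Asp(GTC) bases 32 to 40: ctgtcaCgc
Gly(GCC) bases 32 to 40: ctgccaCgg
Gly(CCC) bases 32 to 40: ctcccaCgg
All 5 have the bases ca before C38. After it, the 3 with a listed C38 have g, and both glutamate tRNAs have c. In His(GTG) and Val(CAC), C38 is followed by c and a. Other nuclear tRNAs with C38 followed by g, such as Val(TAC), have no listed cytosine at any position and cannot be compared. The following base is therefore given as a description of these sequences alone.

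The 24 glutamate loci lie on TAIR10 chromosomes as the authors' list gives them. Glu(CTC) has 13 loci, with 4 on chromosome 1, 2 on chromosome 2, 2 on chromosome 3, 4 on chromosome 4 and 1 on chromosome 5. Each is 73 bases long, the first being AT1G29210 at chromosome 1, 10207306 to 10207378. All 13 are annotated as tRNA genes in RefSeq, and 1 of them, AT3G51135, overlaps the protein-coding gene AT3G51140.

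The purely nuclear consensus of Glu(TTC) has 11 loci, with 3 on chromosome 1, 3 on chromosome 3, 2 on chromosome 4 and 3 on chromosome 5. Of these, 10 have the consensus length of 72 bases and are annotated as tRNA genes, beginning with AT1G09110 at chromosome 1, 2939417 to 2939488. The remaining one, AT4G01455 at chromosome 4, 611866 to 611932, is 67 bases long and is annotated as a pseudogene. Protein-coding genes overlap 3 of the 11 loci: AT5G27715 lies over AT5G27710, AT5G45715 over AT5G45720 and AT3G05525 over AT3G05520. A level stands for all loci of a consensus together, and how the loci share it was not measured.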

How the data were processed

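Levels were deposited by the authors as percent methylation, that is, the share of C among RBS-seq reads showing C or T. Reads had been aligned in CLC Genomics Workbench (version not given in the sources used here), with consensus tRNAs in which C was written as T as the reference. They collapsed near-identical loci of TAIR10 into 100 consensus sequences and rounded levels to whole percents. Alignment to a collapsed reference cannot separate loci of a family, and other bisulfite-resistant cytosines read as m5C. With at least 5 reads behind a value and unknown depth, no interval was computed. Positions were counted from the 3′ end (48 to 73) or from the anticodon (27 to 43). Calls used a minimum of 20% in wild type, 5% for lost and 20 points for reduced. The code was run on made-up values drawn inside each class, which checks only that it applies these limits. No reads, depth or noise were simulated. Calls were recomputed with falls of 10 and 30 points, a ratio of 0.5, wild type minimums of 10% and 40%, and lost levels of 0% and 10%. Named sites are all listed glutamate cytosines, the related glycine and aspartate tRNAs, and the nearest sites by mean absolute difference. The glutamate tRNAs and the comparison lists were chosen with earlier results of these data known. RefSeq (assembly TAIR10.1) gave gene types and overlaps only. Consensus entries with an organelle origin were left out, since they have no listed level. Among them, the Glu(TTC) entry of mitochondrial and nuclear origin includes AT2G07752 on chromosome 2, annotated as a tRNA gene. Analyses used Python 3.11.15, numpy 2.4.6 and matplotlib 3.10.9.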

Additional observations from a re-analysis of the deposited data

How the results depend on the processing

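Over 13 results, 45 alternatives were run, and 44 gave values within 1.5 times of the reported one. The exception was the median level over the 5 glutamate cytosines in *trm4b-1*, which was 0%, while their mean was 19.6%. The limit of 1.5 times is loose here, since counts of 0 stayed at 0 and most others were small. Within it, the count in *trm4b-2* went from 3 to 2 with a ratio below 0.5. The number of nuclear tRNAs with C at 38 went from 13 to 9 when position 38 was counted from the 3′ end. With a fall of 10 points in place of 20, Glu(CTC) C49 also counted as reduced in the double mutant and *trm4b-2*, giving 5 of 5 and 4 of 4. With a fall of 30 points it no longer counted in *trm4b-1*, giving 4 of 5. No paired analysis was possible because the mutants have 1 library each and no test was made. No replicate could be left out, since the 3 wild type seedling libraries were deposited as a mean. Unknown read depth limits every level, including C49 in the libraries with *TRM4B* mutated. Glu(TTC) C48 also lies near the 20% minimum.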
